A study of Mus musculus with 24 samples.

Results

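Microglia are the resident macrophages of the brain, and related macrophages lie along its vessels and coverings. They survey the tissue through surface receptors, take up debris and synapses, degrade it in lysosomes, and depend on growth factor signalling through the CSF1 receptor for survival. In the hypothalamus they are known for responding to diet. The genes followed here are 31 ids chosen as markers and functional genes of these cells, and 27 of them were present among the 13998 genes of the hypothalamus expression table. *Cyba*, *Cd68*, *Cd14* and *Lyz2* were not analysed here. All 27 passed the minimum mean normalized count of 5.

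The libraries came from male F2 mice of an intercross between a single B6.CAST-17.1 male and C57BL/6J females, 12 homozygous *cast/cast* and 12 homozygous *b6/b6* across the CAST donor segment of chromosome (Chr) 17, and *b6/b6* in the rest of the genome. For the diet test all were housed singly, at 10 to 16 weeks of age. The test was 10 d of choice between a carbohydrate/protein (C/P) and a fat/protein (F/P) diet. The mice then went back to chow, had both diets again from about 48 h before dissection, and were fasted shortly before it. The sequenced mice were picked from the ends of the intake distribution, so that C/P intake ran from 77.8 to 106.6 kcal in the first and from 27.4 to 41.0 kcal in the second genotype, and genotype and intake cannot be told apart across the groups. SAGE-Seq, which counts 1 short tag near the 3′ end of each transcript, gave 7754202 to 13082873 tag hits per mouse. Values below are tag hits divided by the size factor of the library (normalized counts), and levels are not divided by transcript length because a transcript yields 1 tag. As a check of the libraries, made after the data were seen, each was correlated with the others, and 3 stood apart by the lowest median correlation (b6/b6 mouse 12, 0.862, cast/cast mouse 6, 0.884, and b6/b6 mouse 6, 0.893, against 0.912 to 0.956 in the other 21), and the fold changes of the 15 genes that moved by more than 0.1 log2 units when they were left out are given both ways.

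The tag of a transcript is taken to begin at its CATG site nearest the 3′ end, the usual anchor of this type of kit. In the GENCODE transcripts (GRCm38) all 27 genes have a complete 27-base tag at such a site, of which 24 lie in the 3′ UTR, and none is shared with another gene's predicted tag. The tags of the genes on which the results below turn are shown, since these short stretches are what the counts report. CATG is in capitals.
Cx3cr1, chr9:120048736-120048762, minus strand: CATGgttaagcgtgcctagagtgtgtc
Aif1, chr17:35171028-35171054, minus strand: CATGgaaaaaagaaacagtcgtgagcc
Laptm5, chr4:130935936-130935962, plus strand: CATGtgttctatggtggcagcaaggag
Trem2, chr17:48352085-48352111, plus strand: CATGctctcccctcctccaccaagact
Lgmn, chr12:102394574-102394600, minus strand: CATGgacaaagtgtgtcttagtcacta
Selplg, chr5:113818700-113818726, minus strand: CATGtctgcttctctgattccagtggc
P2ry12, chr3:59216366-59216392, minus strand: CATGtgtataatattaaaatgcattta
Tyrobp, chr7:30413838-30413864, plus strand: CATGggggctctggagccctcctggtg
Tmem119, chr5:113794008-113794034, minus strand: CATGtggggcgaggggagtgagcagaa
Fcer1g, chr1:171229859-171229885, minus strand: CATGagaaaccaccccagtagcttcag
The tag of *Lgmn* lies in coding sequence of exon 14, that of *Tyrobp* spans the start of the coding sequence in exon 1, and that of *Fcer1g* spans its end in exon 5. The others shown lie in the 3′ UTR of the last exon. The CAST sequence was not used here, so whether the *Aif1* tag differs between the alleles was not tested.

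The mean level of the 27 genes ran from 8.79 normalized counts for *Mrc1*, the mannose receptor of perivascular macrophages, to 1370.1 for *Cx3cr1*, the fractalkine receptor. The median over the genes was 69.1, against 151 over all genes, 12 genes had a mean of at least 100, and 5 had a mean under 20 (*Tmem119*, *Ptprc*, *Irf8*, *Olfml3* and *Mrc1*). Few listed markers of white blood cells were in the table: of the T, B and NK cell list 2 of 15 genes (*Cd79a* and *Lck*) and of the neutrophil list 1 of 10 (*Mmp8*). Their means in *cast/cast* and *b6/b6* mice were 99.7 and 56.7 for *Cd79a*, 296 and 264 for *Lck*, and 193 and 114 for *Mmp8*. No gene in the table had a mean under 6.03, so a marker missing from it may have been expressed at a low level. The 27 genes include both abundant transcripts and transcripts counted by a handful of tags. Of the latter, *Tmem119* and *Irf8* were at 2 tag hits and *Ptprc* at 1 in their lowest mouse, below the 3 taken as detectable. The summed level of the 27 genes was 4149 to 8517 (median 5303) among *cast/cast* mice and 4605 to 6457 (median 5089) among *b6/b6* mice. These are bulk samples, so fewer cells of this kind and less RNA per cell cannot be told apart.

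**Figure D1:**
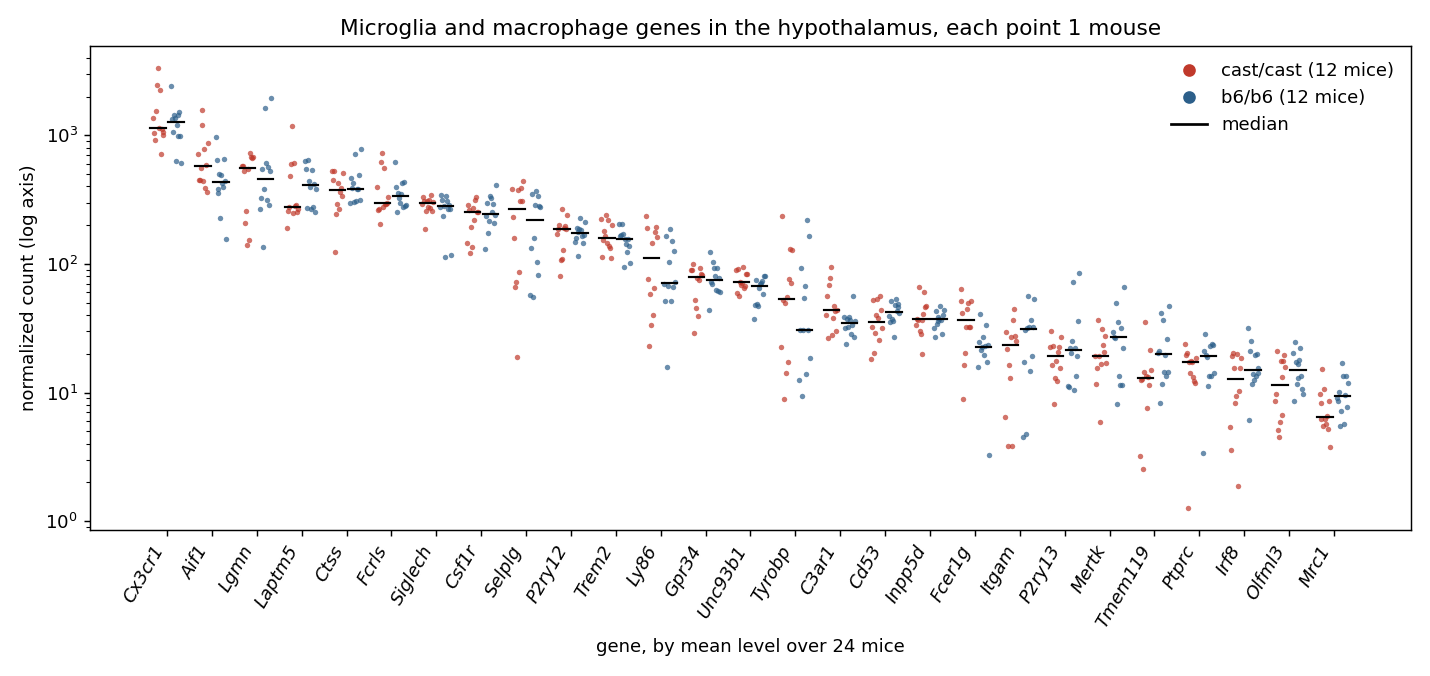
Normalized count (log axis) of each of the 27 genes in each mouse, ordered by mean level, with *cast/cast* in red, *b6/b6* in blue and a black line at the median of 12 mice. The points of the genotypes overlap for all 27 genes, and the highest mouse is more than 10-fold above the lowest for *Tyrobp*, *Itgam* and *Ly86* in both genotypes, for *Selplg*, *Ptprc*, *Tmem119* and *Irf8* in *cast/cast* and for *Lgmn* and *Fcer1g* in *b6/b6*.

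None of the 27 genes was called different between *cast/cast* and *b6/b6* mice at the thresholds of the study (*P* at most 0.01 and at least 1.5-fold), by limma on log2(normalized count + 1), edgeR or DESeq2. The same rule called 1.49% of all 13998 genes in limma (0.471% higher and 1.01% lower in *cast/cast*), 2.79% in edgeR and 2.82% in DESeq2. At an unadjusted *P* under 0.05 there were 4 of the 27, *Fcer1g*, *Aif1* and *C3ar1* higher and *Tmem119* lower in *cast/cast*, where 8.13% of all genes passed. The lowest Benjamini-Hochberg adjusted *P* over all genes was 0.586 among the 27, and 0.572% of all genes reached 0.05. Fold changes were above 0 for 12 genes and below 0 for 15, with a median of -0.17 on the log2 scale (*cast/cast* over *b6/b6*) against -0.02 for all genes. The genotypes overlapped for every one of the 27, whereas 0.336% of all genes had no overlap. All fold changes below are limma estimates on the log2(normalized count + 1) scale with their standard errors, which understate the change of low genes.

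**Figure D2:**
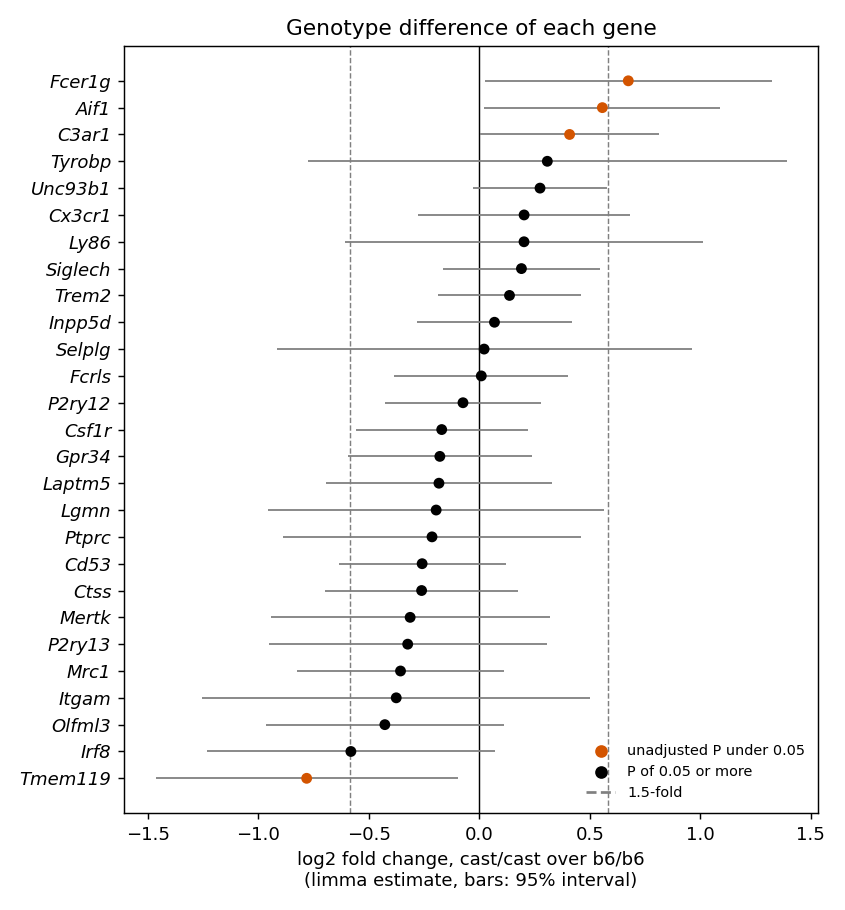
Log2 fold change (*cast/cast* over *b6/b6*, limma) of each gene with its 95% interval, with dashed lines at 1.5-fold and the 4 genes of unadjusted *P* under 0.05 in orange. The intervals of 20 of the 27 genes reach past a 1.5-fold change in at least 1 direction, so these data do not bound their difference below that size.

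Among the 9 receptors and surface markers of resting microglia, 4 had fold changes above 0 and 5 below 0. *Cx3cr1*, through which microglia sense the neuronal chemokine fractalkine, ranged from 715 to 3336 (median 1129) across the *cast/cast* mice and from 612 to 2425 (median 1266) across the *b6/b6* mice. The mice of both genotypes shared most of this range, and the fold change was 0.20 ± 0.23 (*P* = 0.393), turning to -0.10 without the 3 libraries that stood apart. *Csf1r*, the receptor for CSF1 and IL-34 on which microglial survival depends, ranged from 122 to 329.7 (median 255) across the *cast/cast* mice and from 131 to 413 (median 246) across the *b6/b6* mice, with a fold change of -0.17 ± 0.19 (*P* = 0.379) and 0.0116 without the 3 libraries. For the ADP receptors that guide microglial processes, *P2ry12* ranged from 80.01 to 266 (median 187) across the *cast/cast* mice and from 115 to 228 (median 173) across the *b6/b6* mice (fold change -0.07 ± 0.17, *P* = 0.675). Its neighbour *P2ry13* ranged from 8.19 to 30.3 (median 19.2) across the *cast/cast* mice and from 10.4 to 84.8 (median 21.3) across the *b6/b6* mice, where the 2 highest values came from b6/b6 mice 6 and 12. The fold change of *P2ry13* was -0.32 ± 0.31 (*P* = 0.301) and 0.06 without the 3 libraries. Neither pair of genotype ranges was separate.

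*Tmem119*, a membrane protein that marks microglia apart from other macrophages, ranged from 2.54 to 35.6 (median 13.02) across the *cast/cast* mice and from 8.30 to 46.8 (median 19.99) across the *b6/b6* mice, a fold change of -0.78 ± 0.33 (*P* = 0.0268, adjusted *P* = 0.586). It was below the *b6/b6* median in 10 of 12 *cast/cast* mice, 3 of them below every *b6/b6* mouse, and the difference was -0.72 (*P* = 0.0307) without the 3 libraries. The remaining surface genes differed less. *Siglech*, a sialic acid-binding lectin of microglia, ranged from 185 to 345 (median 298) across the *cast/cast* mice and from 114 to 346 (median 281) across the *b6/b6* mice (fold change 0.19 ± 0.17, *P* = 0.276, and -0.0396 without the 3 libraries), and its 2 lowest values were again those of b6/b6 mice 6 and 12. *Gpr34*, a lysophosphatidylserine receptor, *Fcrls*, an Fc receptor-like protein, and *Selplg*, the P-selectin ligand, had fold changes of -0.18 ± 0.20 (*P* = 0.388), 0.01 ± 0.19 (*P* = 0.96) and 0.02 ± 0.46 (*P* = 0.961). With the 3 libraries left out *Fcrls* was at -0.14 and *Selplg* at 0.45. *Selplg* spread most of these, from 18.99 to 438 (median 269) across the *cast/cast* mice and from 55.1 to 367 (median 218) across the *b6/b6* mice.

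Of the 10 immunoreceptors, adaptors and signalling proteins in the table, 7 had fold changes above 0 and 3 below 0. *Fcer1g*, the gamma chain through which Fc receptors signal, ranged from 8.89 to 63.5 (median 36.8) across the *cast/cast* mice and from 3.26 to 40.6 (median 22.7) across the *b6/b6* mice, with a fold change of 0.67 ± 0.32 (*P* = 0.0423, adjusted *P* = 0.607). The level was above the *b6/b6* median in 9 of 12 *cast/cast* mice and above the highest *b6/b6* mouse in 6. *C3ar1*, the receptor for complement fragment C3a, ranged from 26.6 to 93.8 (median 43.7) across the *cast/cast* mice and from 23.97 to 56.5 (median 34.8) across the *b6/b6* mice (fold change 0.41 ± 0.20, *P* = 0.0475, adjusted *P* = 0.608). Without the 3 libraries *P* was 0.0563 for *Fcer1g* and 0.0925 for *C3ar1*, with fold changes of 0.54 and 0.34.

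*Tyrobp* encodes DAP12, the adaptor that carries the signal of TREM2. It ranged from 8.89 to 235 (median 53.6) across the *cast/cast* mice and from 9.44 to 221 (median 30.7) across the *b6/b6* mice, the widest relative spread of the genes, and its fold change of 0.31 ± 0.53 (*P* = 0.564) had a 95% interval from -0.77 to 1.39. *Ly86* (MD-1, a partner of the Toll-like receptor homologue RP105) and *Itgam* (CD11b, the alpha chain of complement receptor CR3) also spread widely (within-genotype SD of 1.05 and 1.11 log2 units), with fold changes of 0.20 ± 0.40 (*P* = 0.612) and -0.38 ± 0.43 (*P* = 0.388), and of 0.36 and -0.0907 without the 3 libraries. *Unc93b1*, the chaperone of endosomal Toll-like receptors, had 0.28 ± 0.15 (*P* = 0.072) and, without the 3 libraries, 0.33 (*P* = 0.0383). *Ptprc* (the leukocyte phosphatase CD45), the tetraspanin gene *Cd53* and *Inpp5d* (the lipid phosphatase SHIP1) had fold changes of -0.21 ± 0.33 (*P* = 0.521), -0.26 ± 0.18 (*P* = 0.173) and 0.07 ± 0.17 (*P* = 0.689).

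The 5 genes of lysosomal degradation and uptake in the table all had fold changes below 0, from -0.36 to -0.18, with *P* of at least 0.13. The cysteine protease genes *Ctss* (cathepsin S) and *Lgmn* (legumain) had -0.26 ± 0.21 (*P* = 0.23) and -0.19 ± 0.37 (*P* = 0.604), and *Ctss* was at -0.0684 without the 3 libraries. *Lgmn* ranged from 141 to 728 (median 561) across the *cast/cast* mice and from 135 to 1932 (median 455) across the *b6/b6* mice. Its 2 highest values, 1932 and 1624, were those of b6/b6 mice 12 and 6, and without the 3 libraries its fold change was 0.33 (*P* = 0.277). *Laptm5*, a lysosomal membrane protein, ranged from 189 to 1187 (median 278) across the *cast/cast* mice and from 255 to 642 (median 408) across the *b6/b6* mice, with a fold change of -0.18 ± 0.25 (*P* = 0.471), and *Mertk*, a receptor for uptake of apoptotic cells, had -0.31 ± 0.31 (*P* = 0.319) and *Mrc1* -0.36 ± 0.23 (*P* = 0.13). Leaving out the 3 libraries, *Laptm5* was at -0.35 and *Mertk* at 0.0285. *Irf8*, a transcription factor of microglia, and *Olfml3*, a secreted glycoprotein, had -0.58 ± 0.32 (*P* = 0.0793) and -0.43 ± 0.26 (*P* = 0.115), on levels of at most 31.7 and 24.9 normalized counts.

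*Aif1*, which encodes the calcium-binding actin-bundling protein IBA1, is the gene among the 27 that lies within the CAST segment, at chr17:35170991-35176001 on the minus strand (GRCm38). Its level ranged from 363 to 1570.3 (median 576) across the *cast/cast* mice and from 157 to 975 (median 434) across the *b6/b6* mice. It was above the *b6/b6* median in 10 of 12 *cast/cast* mice and above the highest *b6/b6* mouse in 2, and the genotypes overlapped between 363 and 975. The means of 698 ± 366 and 471 ± 215 normalized counts (SD, n = 12 each) differed by a factor of 1.48, just under the 1.5 required, and the fold change was 0.56 ± 0.26 (limma, *P* = 0.0411, adjusted *P* = 0.607). Among the 430 segment genes 24.4% were called by limma, 25.8% by edgeR and 26.3% by DESeq2, and 37.4% had *P* under 0.05, so a *P* of this size was not particular to *Aif1* there. The value depended on which mice were compared. When the comparison was limited to study numbers up to 300 (12 *cast/cast*, 7 *b6/b6*), *Aif1* was called (fold change 0.91, *P* = 0.00423, adjusted *P* = 0.25), where the rule called 3.26% of all genes. This subset kept all 3 libraries that stood apart. The *b6/b6* mice it left out all had positive scores on the main component of the other genes, with which *Aif1* correlated at r = 0.76. The 4 *cast/cast* mice with positive scores stayed in. With study number as a covariate the limma fold change was 0.71 (*P* = 0.00764), which is past 1.5-fold. With the main component of the other genes as a covariate it was 0.56 (*P* = 0.00345). The rule takes its ratio from means without covariates, which stayed at 1.48, so *Aif1* was not called in either fit. Without the 3 libraries the fold change was 0.20 (*P* = 0.336). Of these libraries, cast/cast mouse 6 held the highest *Aif1* value and b6/b6 mice 12 and 6 the 2 lowest.

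The 2 nearest tested genes on each side of *Aif1* were not called. *Prrc2a*, an RNA-binding protein gene, had a fold change of -1.18 (*P* = 0.0587), *Bag6*, a chaperone gene, -0.12 (*P* = 0.516), *Ltb*, encoding lymphotoxin beta, 0.62 (*P* = 0.0571) and *Nfkbil1* 0.23 (*P* = 0.406). Within 1000 kb, 15 of the other 68 tested genes were called.

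*Trem2*, the lipid-sensing receptor of microglia, also lies on Chr 17, at chr17:48346400-48352276 on the plus strand, but beyond the CAST segment, where the genotypes are alike by design. Its level ranged from 110.2 to 239 (median 159) across the *cast/cast* mice and from 94.4 to 205 (median 156) across the *b6/b6* mice, with 3 *cast/cast* mice above the highest *b6/b6* mouse and b6/b6 mice 6 and 12 below the lowest *cast/cast* mouse, and a fold change of 0.14 ± 0.16 (*P* = 0.389) and a 95% interval from -0.18 to 0.46. The interval lies inside 1.5-fold in both directions, and without the 3 libraries the fold change was -0.0299. None of the 231 genes of Chr 17 outside the segment was called by limma or DESeq2 (0%) and 4 (1.73%) by edgeR, and 5.63% had *P* under 0.05. The neighbours *Tfeb*, *Foxp4*, *Nfya* and *AI314976* had fold changes of 0.09, 0.20, -0.64 and 0.19, with *P* from 0.0548 to 0.691. The other 25 genes lie on other chromosomes, where 0.726% of 13086 genes were called by limma, 2.05% by edgeR and 2.06% by DESeq2, and 7.16% had *P* under 0.05.

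**Figure D3:**
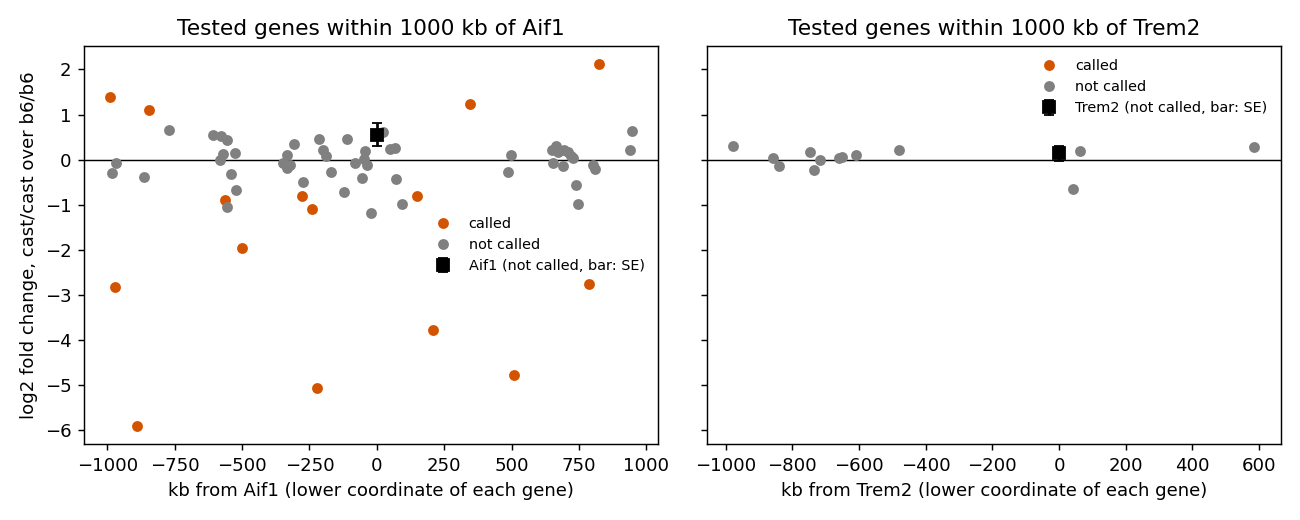
Log2 fold change (*cast/cast* over *b6/b6*) of the tested genes within 1000 kb of *Aif1* (left) and *Trem2* (right) against distance in kb, with called genes in orange and a standard error bar on the named gene. Called genes lie on both sides of *Aif1*, in both directions, and none lies around *Trem2*.

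The spread among mice of one genotype, which holds differences between animals and in handling beside counting error, ranged widely over the 27 genes. The ratio of the coefficient of variation within genotype to that from tag counting alone ran from 1.11 (*Mrc1*) to 18.3 (*Lgmn*), with a median of 3.13, and was under 2 for 7 genes. The coefficient of variation within genotype was 47.3% for *Cx3cr1* against 2.69% from counting, 77.2% against 4.21% for *Lgmn* and 98.8% against 11.9% for *Tyrobp*. For *Mrc1* it was 37.2% against 33.6%. The median within-genotype SD was 0.61 log2 units for the 27 genes and 0.57 for all genes.

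The genes did not vary as 1 block. Over the 351 pairs the median Pearson correlation of log2 levels, centred within genotype, was 0.04 (n = 24 mice, which share library, depth and scaling), with 53 pairs at 0.5 or above and 40 at -0.5 or below. *Cx3cr1*, *Aif1*, *Trem2*, *Fcrls*, *Laptm5* and *C3ar1* are called the first set here, and *Lgmn*, *Selplg*, *Csf1r*, *P2ry12*, *Itgam*, *Ly86*, *Gpr34*, *Tyrobp*, *Ctss*, *P2ry13* and *Olfml3* the second, after their correlation with the main component of all other genes (at least 0.5, or at most -0.5), a division made after the values were seen. The division rests in part on the 3 libraries that stood apart: without them *P2ry13* was at -0.37 and so outside the second set, and *Fcer1g*, at -0.30 in all 24 mice, was at -0.66. The strongest positive pair was *Cx3cr1* and *Aif1* (r = 0.88, Spearman's rho = 0.81), and the strongest negative pairs were *Selplg* and *Laptm5* (r = -0.92) and *Cx3cr1* and *Lgmn* (r = -0.87, rho = -0.89). Over the other 21 mice these pairs were at 0.78, -0.91 and -0.77. Within genotypes the *Cx3cr1* and *Lgmn* values were -0.90 in the *cast/cast* group and -0.86 in the *b6/b6* group (n = 12 each). Receptor and adaptor also ran opposite: *Trem2* and *Tyrobp* had r = -0.54 (n = 24, -0.11 and -0.50 in the 14 and 10 mice with low and high scores on the main component), and *Cx3cr1* and *Csf1r*, which both mark resident microglia, r = -0.77.

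**Figure D4:**
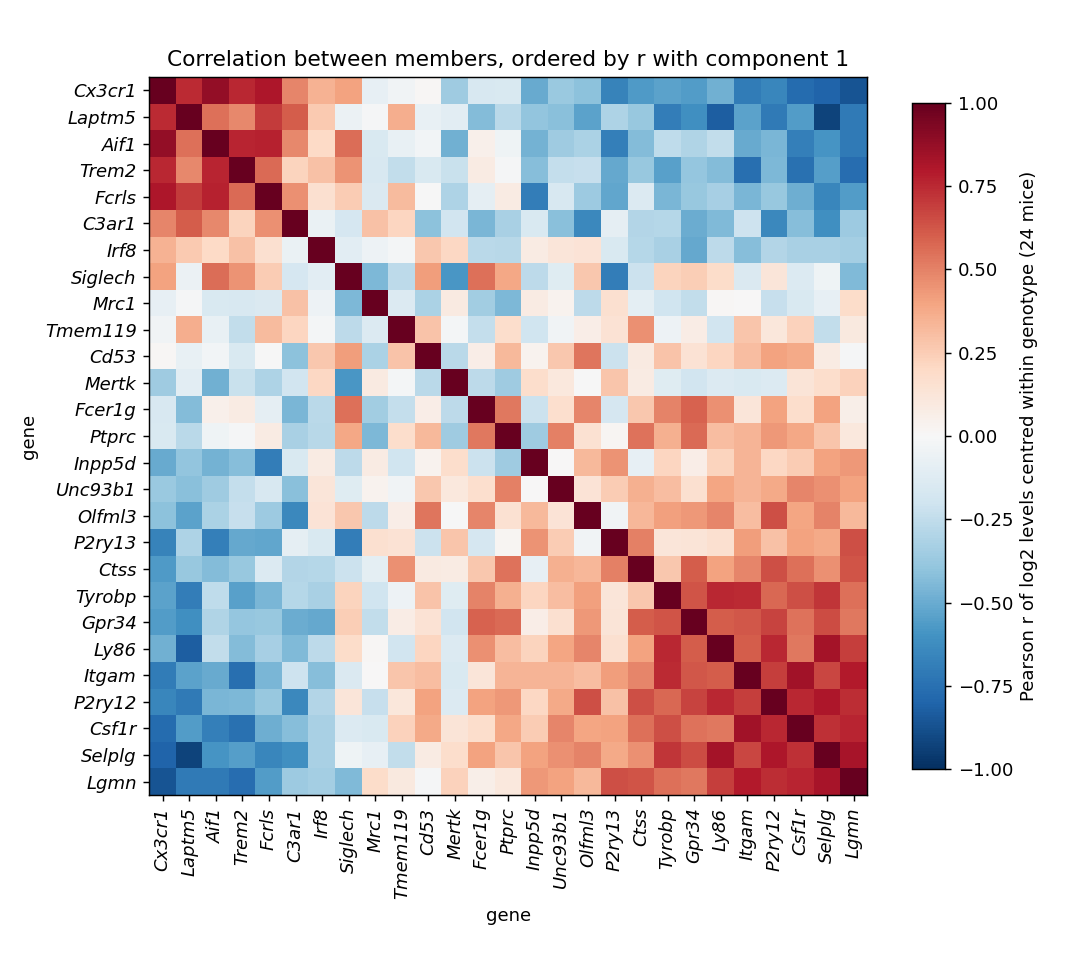
Pearson correlation (colour, from -1 to 1) between the log2 levels of the 27 genes over 24 mice, centred within genotype, with genes ordered by their correlation with the main component of all other genes. The 6 genes at the top left correlate positively with each other and negatively with the genes at the bottom right, while *Mrc1*, *Tmem119*, *Cd53* and *Mertk* in the middle go with neither set. The order comes from the same 24 mice and itself favours such blocks.

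The main component that divides the sets is the axis along which the whole libraries differed most. The first principal component of 11275 other genes outside Chr 17 (mean of at least 20) held 38.2% of their within-genotype variance. *Cx3cr1* (0.92), *Laptm5* (0.84), *Aif1* (0.76) and *Trem2* (0.73) correlated positively with it, and *Lgmn* (-0.92), *Selplg* (-0.91), *Csf1r* (-0.84) and *P2ry12* (-0.83) negatively. In all, 6 of the 27 genes had a correlation of at least 0.5 and 11 of at most -0.5, beside 25.9% and 26.02% of the 11275 genes, so membership of either side was common in the whole table. The component correlated with log2 tag hits per mouse at r = 0.34, with the summed level of a list of further microglial genes at 0.87, and with those of the oligodendrocyte list at -0.66, of hypothalamic neuropeptide genes at -0.73 and of border-associated macrophages at 0.64, whose part in the result was not tested. Such sums follow the most abundant genes, and the median correlation over single genes was 0.23 for the further microglial list (11 of 44 genes at 0.5 or above and 10 at -0.5 or below) and -0.0446 for the border-associated list. The single-gene median was nearer the sum for the oligodendrocyte list (-0.66, with 1 of 8 genes at 0.5 or above and 5 at -0.5 or below). For the hypothalamic list it was -0.52 (0 of 13 and 8). The summed T, B and NK cell list, of 2 genes, was at 0.71.

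Along this component the mice left a gap from -0.08 to 0.08, with 14 mice below it (8 *cast/cast* and 6 *b6/b6*) and 10 above it (4 and 6). Among the *b6/b6* mice, study numbers ran from 288 to 364 above the gap and from 27 to 251 below it. Among the *cast/cast* mice they overlapped, from 15 to 270 above and from 93 to 255 below. The part of study number in this division was not tested. Some correlations held on both sides of the gap and others rested on it. With the component, *Cx3cr1* had r = 0.84 in the lower 14 and 0.74 in the upper 10 mice, *Lgmn* -0.90 and -0.58, and *Csf1r* -0.66 and -0.74. In the upper 10 mice all 17 genes of the sets kept the sign they had over 24 mice. The sets were chosen over the same 24 mice, so the choice itself favours agreement of sign in either part. In the lower 14 mice 2 of the 6 genes of the first set were below 0, *Laptm5* (-0.90) and *C3ar1* (-0.34), and 5 of the 11 of the second were above 0, *Ly86* (0.56), *Olfml3* (0.31), *Selplg* (0.30), *Tyrobp* (0.30) and *Gpr34* (0.21), while *P2ry12* was at -0.17. Without the 3 libraries that stood apart, 64 pairs were at 0.5 or above and 32 at -0.5 or below.

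**Figure D5:**
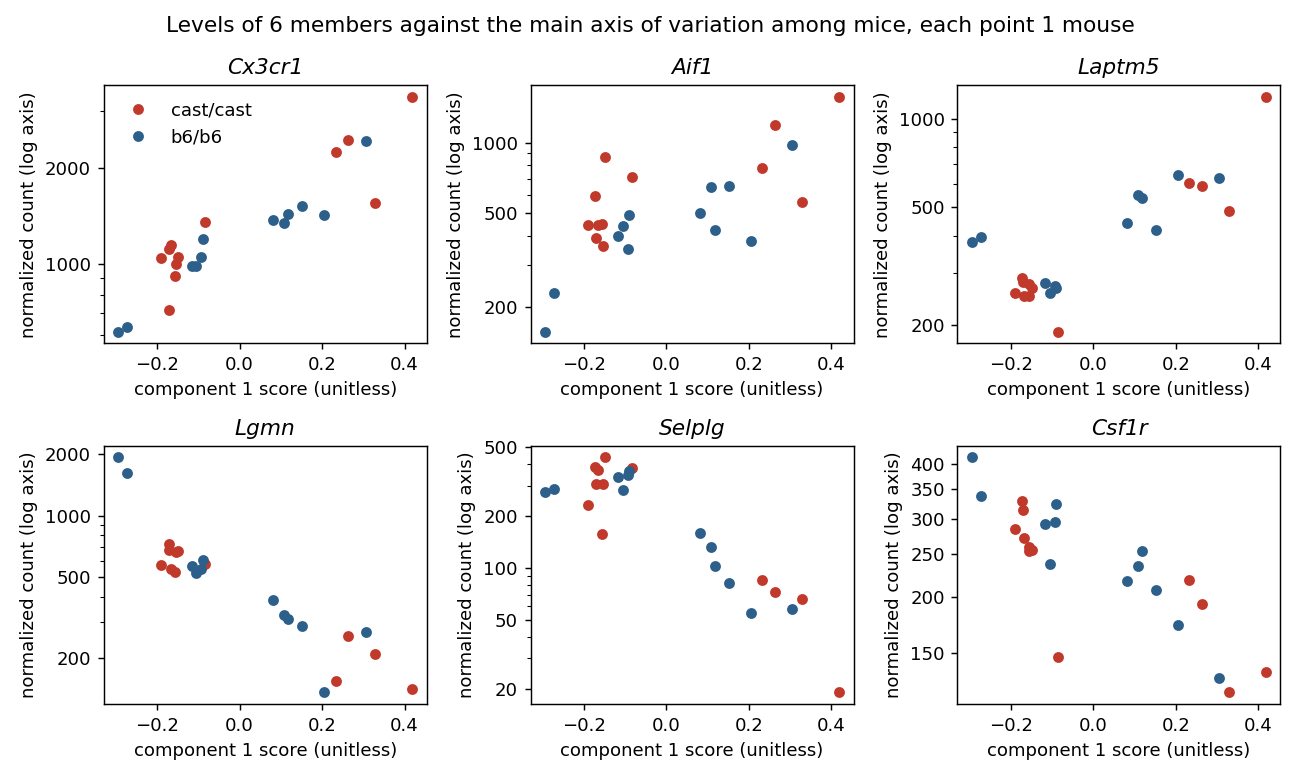
Normalized count (log axis) of 6 genes in each mouse against the score of that mouse on component 1 of the other genes (unitless), *cast/cast* in red and *b6/b6* in blue. *Cx3cr1* and *Aif1* are higher and *Lgmn*, *Selplg* and *Csf1r* lower toward higher scores in both genotypes, and the lowest 2 scores belong to b6/b6 mice 12 and 6, which have the 2 highest *Lgmn* values.

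What the 2 sets share in sequence was described for the tags. The distance from the CATG site to the transcript end had a median of 134.5 bases (63 to 297) in the 6 genes of the first set and 413 bases (34 to 529) in the 11 of the second, with overlapping ranges. Over the 27 genes this distance and the correlation with component 1 had a Spearman rho of -0.31, and over 10588 genes of the table -0.26. Its part in the pattern was not tested.

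Each gene was also set against the mean standardised level of the other 26. The highest correlations were those of *P2ry12* (0.75), *Ly86* (0.68) and *Itgam* (0.64), and the lowest those of *Laptm5* (-0.64) and *Cx3cr1* (-0.56), with a median of 0.34. Of the 13971 genes outside the list, 14.9% reached 0.5 with the mean of the 27. The 10 most alike were *B2m* (0.90), encoding beta-2-microglobulin, *Pmp22* (0.87), *Med7*, *Ube2t*, *Hmgb2*, *Ube2d1*, *Mtcp1*, *Pf4*, *Dhrs11* and *2610029G23Rik* (0.82), over 24 mice. All 10 also correlated negatively with component 1, from -0.59 (*Pf4*) to -0.96 (*2610029G23Rik*). Of the 27 genes, 11 were at -0.5 or below with that component and 6 at 0.5 or above, so their mean leans to the same side.

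A further 44 microglial genes were in the table of 56 listed, and none was called by limma, edgeR or DESeq2 (3 with limma *P* under 0.05). Their median fold change was 0.04, with 24 above 0 and 20 below 0, and the lowest *P* were those of *Rgs10* (0.38, *P* = 0.0185), *Hk2* (-0.59, *P* = 0.0275) and *Hpgds* (0.31, *P* = 0.0333). *Rgs10* restrains G protein signalling, *Hk2* encodes a hexokinase and *Hpgds* makes prostaglandin D. The 3 chains of complement C1q, which microglia make as 1 complex, split between the sets: *C1qa* and *C1qc* correlated with component 1 at -0.79 and -0.91, and *C1qb* at 0.57. These 3 were singled out after their values were seen. *C1qc* followed *Lgmn* (r = 0.89 over 24 mice) and *C1qb* followed *Cx3cr1* (r = 0.62), while *C1qb* had r = -0.46 with *C1qa* and -0.43 with *C1qc*. In the other 21 mice these were 0.76, 0.47, -0.44 and -0.13.

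Of the list of border-associated macrophages, 12 of 27 genes were in the table and none was called by the 3 tools (1 with limma *P* under 0.05, median 0.29, lowest *P* for *Lyve1* (0.91, *P* = 0.045), *Dab2* (0.30, *P* = 0.052) and *Cd38* (-0.32, *P* = 0.056)). *Lyve1*, a hyaluronan receptor, was counted at 0.854 to 18.99 among *cast/cast* mice and 0 to 11.99 among *b6/b6* mice. The summed list was highest in cast/cast mouse 6 (2214 against a *cast/cast* median of 813), 1 of the libraries that stood apart. Of the genes that rise in disease-associated microglia, 18 of 25 were in the table and none was called by limma (1 with *P* under 0.05, median -0.05, lowest *P* for *Ctsa* (-0.70, *P* = 0.0134), *Igf1* (0.53, *P* = 0.0562) and *Ccl3* (0.56, *P* = 0.163)). By edgeR and DESeq2 1 of them, the lysosomal carboxypeptidase gene *Ctsa*, was lower in *cast/cast*. Of 36 ligands and signalling proteins around the members, 28 were in the table and none was called by the 3 tools (2 with limma *P* under 0.05, median -0.01, lowest *P* for *Plcg2* (0.55, *P* = 0.0256), *Pros1* (-0.61, *P* = 0.0401) and *Clu* (-0.50, *P* = 0.0966)). *Plcg2* encodes the phospholipase downstream of TREM2, and *Pros1* a bridging ligand of MERTK.

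No marker of other cells was called by limma, with *P* under 0.05 for 1 red cell gene and 1 neutrophil gene. By edgeR *Hba-a1* and *Hba-a2*, encoding hemoglobin alpha, and *Mag*, encoding a myelin glycoprotein, were lower in *cast/cast*, and by DESeq2 *Hba-a1* and *Hba-a2*. The median of *Mag* was 42.7 (highest 63.2) among *cast/cast* mice and 53.0 (highest 597) among *b6/b6* mice. Red cell genes had limma fold changes of *Alas2* (-0.92, *P* = 0.0456), *Hba-a2* (-0.92, *P* = 0.0602) and *Hba-a1* (-0.91, *P* = 0.0616), with a summed level of 105 to 782 among *cast/cast* mice and 121 to 4999 among *b6/b6* mice, the highest being b6/b6 mouse 6. For the white cell lists the values were *Cd79a* (0.52, *P* = 0.107) and *Lck* (0.11, *P* = 0.712) and *Mmp8* (0.69, *P* = 0.0391). The lowest *P* were those of *Gja1* (-0.42, *P* = 0.206), *Aqp4* (-0.18, *P* = 0.226) and *Aldh1l1* (0.16, *P* = 0.407) in the astrocyte list, *Mag* (-0.92, *P* = 0.0509) and *Cldn11* (0.28, *P* = 0.211) for oligodendrocytes and *Olig1* (-0.26, *P* = 0.0622), *Olig2* (-0.24, *P* = 0.252) and *Cspg4* (-0.11, *P* = 0.464) for their precursors. In the vascular lists they were *Flt1* (-0.64, *P* = 0.0898), *Cldn5* (-0.25, *P* = 0.372) and *Ly6c1* (0.19, *P* = 0.378) for endothelium and *Myh11* (0.33, *P* = 0.203), *Col1a1* (0.34, *P* = 0.341) and *Pdgfrb* (-0.21, *P* = 0.374) for mural cells and meninges. For neurons they were *Nefl* (-0.39, *P* = 0.181), *Syt1* (0.30, *P* = 0.284) and *Stmn2* (0.11, *P* = 0.368), and for hypothalamic neuropeptide and regulator genes *Ghrh* (0.32, *P* = 0.181), *Crh* (0.62, *P* = 0.184) and *Avp* (-0.47, *P* = 0.247). In the lists of adjoining tissue they were *Kl* (-0.18, *P* = 0.23), *Clic6* (-0.31, *P* = 0.233) and *Ttr* (0.24, *P* = 0.633) for choroid plexus and *Gh* (-0.72, *P* = 0.527), *Fshb* (-0.30, *P* = 0.729) and *Cga* (-0.20, *P* = 0.841) for pituitary. The part of these cells in the results above was not tested. *Pmch*, *Hcrt*, *Agrp* and other hypothalamic markers were counted (13 of 14 in the table), so the labelled tissue had its defining markers. Their summed level varied widely, from 6674 to 36455 among *cast/cast* mice and from 12507 to 30604 among *b6/b6* mice. Whether each dissection held the same parts of the hypothalamus was not tested.

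With C/P intake centred within genotype, none of the 27 genes had a slope with *P* at most 0.01 by limma or edgeR, where 0.572% of all genes did, and 1 had *P* under 0.05, where 3.72% did (limma, genotype in the fit, n = 24). The 3 lowest *P* were those of *P2ry13* (slope -0.46 ± 0.22 log2 units per 10 kcal, *P* = 0.0428), *Ctss* (-0.25 ± 0.15, *P* = 0.111) and *P2ry12* (-0.17 ± 0.13, *P* = 0.192). Without the 3 libraries the *P2ry13* slope was -0.28 (*P* = 0.119). Slopes on C/P intake were above 0 for 12 genes and below 0 for 15. With total kcal in place of C/P kcal, 18 slopes were above 0, with a median of 0.0853 against -0.00938 for all genes, and 2 genes had *P* under 0.05, *Fcer1g* and *Ptprc* (*P* = 0.045). Of these, *Fcer1g* was called (slope 0.54 ± 0.17 log2 units per 10 kcal, *P* = 0.00369, adjusted *P* = 0.485), where 1.77% of all genes were. The lowest *Fcer1g* level, 3.26 normalized counts (3 tag hits), was that of b6/b6 mouse 12. Without the 3 libraries the *Fcer1g* slope was 0.46 ± 0.13 (*P* = 0.00235), and *P2ry13* was then also called (0.36 ± 0.13, *P* = 0.00843, against 0.304 in all 24 mice), where 2.55% of all genes were.

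Macrophage genes are commonly driven by the factor PU.1, which binds purine-rich boxes. Promoters of RefSeq (GRCm38.p6, 250 bases before to 50 after the gene start) were given for 24 of the 31 genes, 21 of them in the table. GAGGAAGT, on either strand, occurred in 3 of the 21 genes, against 3.69% of 27025 genes and 3.33% of tested genes. Its core GAGGAA, which every GAGGAAGT contains, occurred in 12 of the 21, against 31.3% and 30.2%, and these were *Aif1*, *Cd53*, *Ctss*, *Fcrls*, *Inpp5d*, *Itgam*, *Laptm5*, *Mrc1*, *P2ry13*, *Ptprc*, *Siglech* and *Trem2*. Genes of both sets above are among them. The 3 stretches with the longer box are shown, 5′ to 3′ on the strand of the gene, to give the promoters in which it occurs. The box or its complement is in capitals.
Cd53, chr3:106790110-106790169, minus strand: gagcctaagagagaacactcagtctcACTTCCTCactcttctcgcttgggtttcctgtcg
Ctss, chr3:95526758-95526817, plus strand: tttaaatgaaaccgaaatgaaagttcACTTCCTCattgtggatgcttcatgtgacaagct
Inpp5d, chr1:87620266-87620325, plus strand: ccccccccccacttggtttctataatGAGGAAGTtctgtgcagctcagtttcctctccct
A match describes the letters in this window only.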

How the data were processed

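Hypothalamus SAGE-Seq libraries of 24 mice were analysed, 1 per mouse. The signal values deposited by the authors are tag hits per gene. The authors mapped the reads to RefSeq mRNA and the GRCm38 build using an adapted SOLiD SAGE Analysis Software, and scaled each library by its DESeq size factor. The table also holds the authors' own comparisons (base means, fold changes, P-values), which were not used. Repeated rows of a gene held identical values, and each gene was used once. Values were whole multiples of 1 step per library (100%, tolerance 0.01), from which whole tag hits were recovered. The lowest mean of any gene was 6.03, so lower genes were not analysed here. Among the 276 pairs of libraries, chi-square divided by its degrees of freedom was at least 15.4, so no library was present more than once. Tags carry no molecular identifiers, so the floor of 3 tag hits covers counting error only.

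The main test was limma 3.58.1 (lmFit, then eBayes with trend) on log2(normalized count + 1) over genes averaging at least 5, with no covariate. Genes were called at P at most 0.01 and a ratio of means of at least 1.5, the means being without covariates in every fit. The count tests, run on the tag hits as alternatives, were edgeR 4.0.16 (TMM, quasi-likelihood) and DESeq2 1.42.0. The CAST segment was bounded by the outermost markers of the study, and positions came from the deposited table or RefSeq. The labels name no separate cultures or batches beyond colony and study number, which do not cover the genotypes evenly. The genes and lists were chosen with earlier results of these data known. Named genes were all members, the 3 of lowest P in each further list (1 oligodendrocyte gene among them is not reported here), the 10 most correlated other genes, the 2 tested neighbours on each side of Aif1 and Trem2, and the 3 members of lowest P for intake. Alternatives also covered the pseudocount (0.5 or 5), a higher minimum mean (20), rescaled libraries, study number as a covariate or up to 300, and other thresholds. On simulated data of the genotype comparison, limma called 87% of 100 genes changed 2-fold, 100% of 100 changed 4-fold and 0.624% of 13780 unchanged genes. The changed genes were drawn from those averaging at least 20, and each gene was simulated independently, without a component shared between genes. These shares are therefore not the power for single members, of which 5 averaged under 20. Python 3.11.15 and R 4.3.3 were used.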

Additional observations from a re-analysis of the deposited data

How the results depend on the processing

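The count of 0 genes called between genotypes held with pseudocounts of 0.5 and 5, a minimum mean of 20 (22 of the 27 genes tested), libraries rescaled to the same total, edgeR, DESeq2, study number as a covariate, adjusted *P* at most 0.05, component 1 as a covariate and without the 3 libraries that stood apart. It was 1 (*Aif1*) with study number up to 300 and 4 with an unadjusted *P* at most 0.05 and no minimum fold. With study number as a covariate the adjusted *Aif1* estimate was 0.71 (limma, *P* = 0.00764), past 1.5-fold. It was not called there because the ratio in the rule is of means without covariates. The median log2 fold change of the 27 genes, -0.17, ran under the alternatives from -0.30 (study number up to 300) to 0.02 (minimum mean of 20, without the 5 lowest genes). The spread of the median level of these genes between mice was 0.23, which is not the error of a difference between genotypes. Rescaling moved the median of all genes from -0.02 to -0.11. For intake the count of 0 became 1 (*Fcer1g*) with total kcal, 2 (*Fcer1g* and *P2ry13*) with total kcal and without the 3 libraries, and stayed 0 under the other alternatives run. Component 1 and the omission of 3 libraries were added after the data were seen, and the intake fits without these libraries likewise.

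The sign of single genes, none of them called, turned in 19 of the 216 combinations of a gene with an alternative that can move its fold change (2 pseudocounts, rescaling, edgeR, DESeq2, study number as a covariate or up to 300, and without the 3 libraries). With the libraries rescaled these were *Fcrls* -0.0817, *Selplg* -0.0678 and *Inpp5d* -0.0198. With study number as a covariate they were *Selplg* -0.16 and *Inpp5d* -0.00193, and with study number up to 300 *Tyrobp* -0.34, *Selplg* -0.64, *Laptm5* 0.10, *Ly86* -0.30 and *Inpp5d* -0.0847. Without the 3 libraries they were *Cx3cr1* -0.0968, *Csf1r* 0.0116, *P2ry12* 0.023, *P2ry13* 0.0643, *Trem2* -0.0299, *Fcrls* -0.14, *Siglech* -0.0396, *Lgmn* 0.33 and *Mertk* 0.0285. The causes were not tested. No paired analysis was possible because the labels give no shared replicate numbers. At this depth, levels under 20 normalized counts rest on few tag hits.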
